A study of Mus musculus with 8 samples.

Results

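Zinc handling in IL-1β-treated chondrocytes was examined through 6 genes, chosen by their role with earlier results of these data known. *Slc39a8* and *Slc39a14* encode the zinc importers ZIP8 and ZIP14, and *Slc30a1* encodes the zinc exporter ZnT1. *Mtf1* encodes the zinc-sensing transcription factor MTF1, and *Mt1* and *Mt2* are metallothionein genes. All 6 genes were found by symbol among the 54658 symbols of the gene count table, each matching 1 row. They were among the 14404 genes that passed a filter on low counts, a level above 1 CPM in at least 4 samples. CPM are counts scaled to the size of the library. The cells were primary articular chondrocytes released with collagenase P from femoral heads (wild-type mice, 3 weeks of age) and grown in high-glucose DMEM. Total RNA was sequenced from 4 samples given IL-1β, a proinflammatory cytokine, at 1 ng/ml for 24 h and from 4 samples given vehicle for 24 h. All samples shared tissue, genotype and culture medium, so that the comparison concerns a short exposure of cells in culture to a cytokine, not cartilage in a joint. The labels do not say whether the 4 samples of a group came from separate mice or cultures, so p-values here measure the spread between these samples, which may be technical.

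Zinc in the cytosol is raised by ZIP proteins, which carry it in from outside the cell or out of organelles, and lowered by ZnT proteins, which carry it in the other direction. MTF1 binds zinc through its zinc fingers, enters the nucleus and activates genes whose promoters carry metal response elements, among them the metallothioneins and *Slc30a1*. Metallothioneins are short cysteine-rich proteins that hold zinc and copper and give zinc up again under oxidative stress, so their transcripts are widely read as a record of free zinc. In cartilage, ZIP8 and MTF1 are known as parts of a pathway in which zinc uptake precedes matrix protease expression, and most matrix proteases are themselves zinc enzymes. ZIP14 and the metallothioneins are also known as acute phase genes of the liver, where cytokines raise them.

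The sequences to which MTF1 could bind were read first, because the metallothioneins and *Slc30a1* are known as its direct targets. The core of the metal response element was searched as TGCACNC or TGCGCNC on either strand in RefSeq promoter windows of the GRCm38.p6 build, each running from 250 bases before a transcription start to 50 bases after it. The 3 windows with more than 1 match are given 5′ to 3′ on the gene's strand, with the matching letters in capitals. They lie at chr8:94178839-94179138 (+) for *Mt1*, at chr8:94172368-94172667 (+) for *Mt2* and at chr1:191906531-191906830 (+) for *Slc30a1*.
Mt1: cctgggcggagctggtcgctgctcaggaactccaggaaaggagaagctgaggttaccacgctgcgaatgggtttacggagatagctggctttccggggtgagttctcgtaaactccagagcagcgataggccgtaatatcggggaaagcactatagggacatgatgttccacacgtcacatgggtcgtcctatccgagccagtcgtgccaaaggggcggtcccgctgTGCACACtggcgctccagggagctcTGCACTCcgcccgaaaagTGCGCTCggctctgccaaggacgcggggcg
Mt2: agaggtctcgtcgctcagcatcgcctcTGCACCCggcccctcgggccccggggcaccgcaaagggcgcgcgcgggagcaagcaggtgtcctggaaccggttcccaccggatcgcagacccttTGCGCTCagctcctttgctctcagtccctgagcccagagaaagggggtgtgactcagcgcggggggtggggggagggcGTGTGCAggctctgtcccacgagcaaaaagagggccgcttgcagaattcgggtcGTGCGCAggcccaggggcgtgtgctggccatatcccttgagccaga
Slc30a1: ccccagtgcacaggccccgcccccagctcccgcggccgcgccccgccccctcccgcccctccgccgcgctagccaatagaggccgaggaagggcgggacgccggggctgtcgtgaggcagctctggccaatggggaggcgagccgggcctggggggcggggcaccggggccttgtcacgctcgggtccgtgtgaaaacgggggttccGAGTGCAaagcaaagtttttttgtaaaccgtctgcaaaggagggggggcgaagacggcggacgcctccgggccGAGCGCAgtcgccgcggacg
The *Mt2* window held 4 matches, the *Mt1* window 3 and the *Slc30a1* window 2. Of all 32851 windows in the table, 0.517% held at least 4 matches, 1.97% at least 3, 7.11% at least 2 and 25.7% at least 1. The *Mtf1* window held 0 matches, and the 2 windows of *Slc39a8* held 0 and 1. *Slc39a14* was not among the genes with a window. With the first transcribed base of RefSeq as 1 and the base before it as -1, the matches of *Mt2* began at -223, -128, -50 and 5, and are spread over the window. Those of *Mt1* began at -23, 3 and 21 and stood closer together, around the start, and those of *Slc30a1* at -43 and 31. The *Mt1* window ended 73 and 103 bases before the other annotated starts of this gene. The *Mt2* window ended 193 bases before another annotated start of *Mt2*. The surroundings of these further starts were not searched. A match is a stretch of letters, and occupancy by MTF1 was not measured.

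Across the samples the deposited gene counts summed to between 10992355 and 17456063, which puts 3 counts at 0.174 to 0.271 CPM. The 8 chondrocyte markers checked, *Col2a1* and *Acan* among them, were detected in all samples. They summed to 14750 to 15321 CPM with vehicle and to 3710 to 4080 CPM with IL-1β. Of these, 8 of 8 were DEGs downward, with a log2 fold change below -1 (DEGs are defined below). Of the 14404 tested genes, 339 were DEGs downward and 412 upward. Markers of synovial fibroblasts (5 genes) summed to 876 to 927 CPM with vehicle and 2049 to 2163 CPM with IL-1β (4 tested, 2 DEGs upward). Macrophage markers (6 genes) summed to 11.5 to 12.6 and 15.9 to 19.0 CPM (2 tested, 0 DEGs). Osteoblast markers (4 genes) summed to 84.3 to 95.2 and 25.9 to 31.5 CPM (3 tested, 3 DEGs downward). Endothelial and erythroid markers stayed below 2 CPM, neutrophil markers below 0.3 CPM, and *Ly6g* was at 0. In bulk RNA, fewer cells of a type and less RNA per cell cannot be told apart, and the part of these marker shifts in the results below was not tested.

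All 6 genes were higher with IL-1β (adjusted p below 0.05, edgeR quasi-likelihood test, Benjamini-Hochberg over all genes tested), against 20.4% of all tested genes called higher and 19.8% called lower. A further criterion of a log2 fold change above 1 defined differentially expressed genes (DEGs), which *Slc39a8*, *Slc39a14*, *Mt1* and *Mt2* met, 4 of 6, against 2.86% of tested genes that were DEGs upward. In each of the 6 genes the lowest IL-1β sample lay above the highest vehicle sample, an ordering found in 18.7% of tested genes. For a single gene that ordering gives p = 0.0286 in a two-sided exact permutation test, the smallest value that 4 against 4 samples allow. The median log2 fold change over all tested genes was -0.00121, so that the fold changes are read against a centre near 0. Since the 6 genes were chosen with earlier results known, the shares of all tested genes are a background, not a test.

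**Figure D1:**
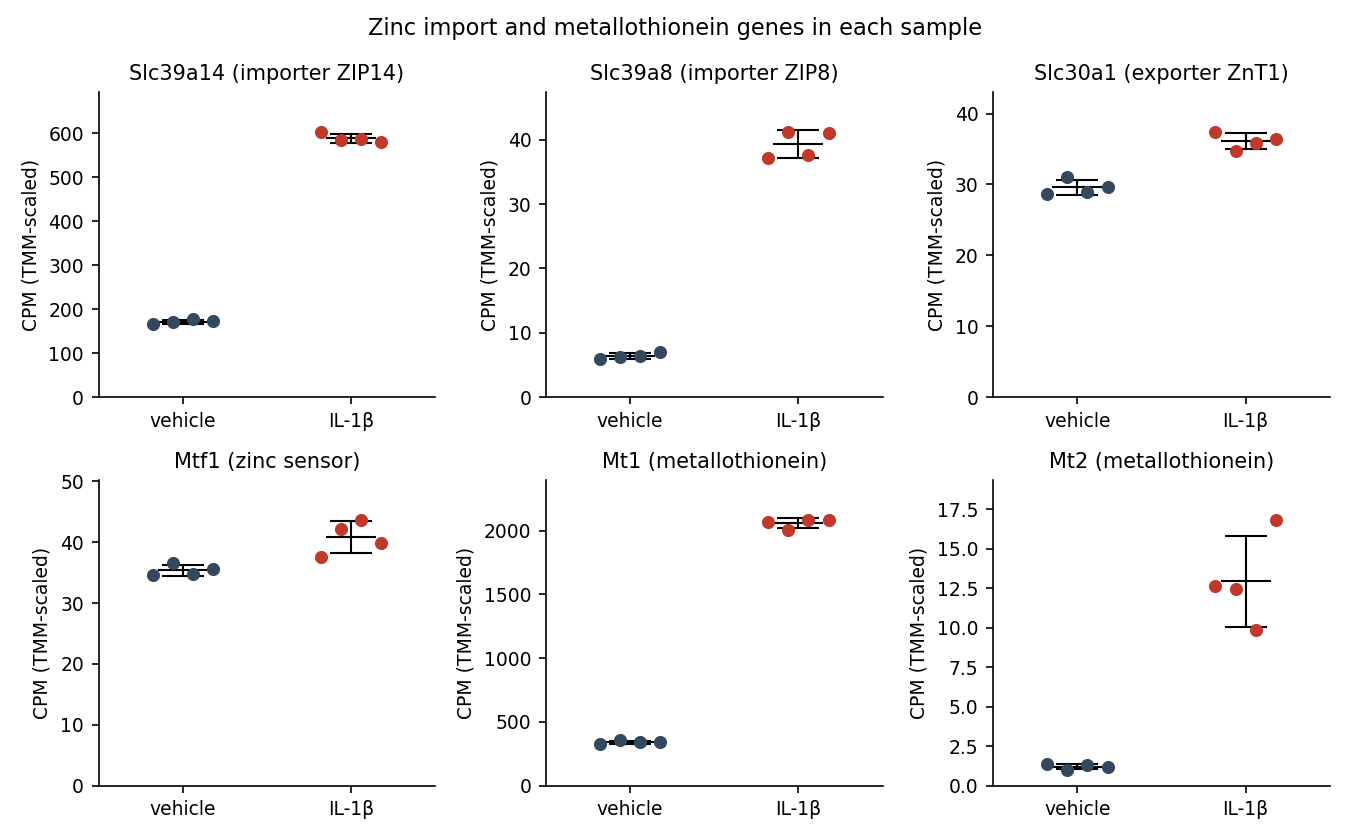
CPM of the 6 genes in each sample, on axes that start at 0. Points are samples, the long bar is the group mean and the short bars are 1 SD (n = 4). The groups do not overlap in any panel, and the gap is widest for *Mt1*, *Mt2*, *Slc39a8* and *Slc39a14* and narrow for *Slc30a1* and *Mtf1*.

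Of the importers, *Slc39a14* was the more abundant and *Slc39a8* the more strongly upregulated. *Slc39a14* (ENSMUSG00000022094.15, chr14:70303469-70351425, minus strand) encodes ZIP14, a plasma membrane transporter of zinc that also carries iron and manganese. Its level was 603, 584, 587 and 580 CPM in the IL-1β samples and 166, 171, 178 and 172 CPM in the vehicle samples. The IL-1β samples lay within 4% of each other around a level well clear of the vehicle samples. The increase was 3.43-fold (95% interval 3.27 to 3.59), a log2 fold change of 1.78 with an SE of 0.0323 and an adjusted p of 1.42e-26 in edgeR's test. With this change *Slc39a14* moved from the 874th to the 163rd place among the tested genes ordered by CPM.

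*Slc39a8* (ENSMUSG00000053897.15, chr3:135825279-135888572, plus strand) encodes ZIP8, a transporter of zinc, manganese and iron related to ZIP14. It stood at 5.90, 6.26, 6.37 and 6.99 CPM with vehicle, from 89 to 108 counts, and at 37.2, 41.2, 37.7 and 41.1 CPM with IL-1β. The lowest IL-1β sample was more than 5 times the highest vehicle sample. The change was 6.18-fold (95% interval 5.57 to 6.85), a log2 fold change of 2.63 with an SE of 0.0725 and an adjusted p of 3.55e-22 in edgeR's test, and the 68th largest log2 fold change among tested genes. Its place by CPM moved from 9744 to 4462, so that *Slc39a8* went from a rarely sampled transcript to one of middling abundance.

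Whether the importers changed by different amounts was tested by their ratio within each sample. The log2 ratio of *Slc39a14* to *Slc39a8* counts was 4.75 ± 0.0890 with vehicle and 3.90 ± 0.0998 with IL-1β (SD, n = 4). The difference of -0.84 (SE 0.0668) had p = 0.0286 in the exact permutation test, and 0.0286 after adjustment over the 4 ratios tested. *Slc39a8* therefore gained relative to *Slc39a14*, though *Slc39a14* remained the more abundant of the pair in every sample.

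The weight of both within the importer family was read from levels per length (RPKM, that is CPM divided by the exon length in kilobases given in the count table). *Slc39a14* made up 9.62 ± 0.127% of the summed RPKM of the 14 ZIP genes with vehicle and 24.3 ± 0.570% with IL-1β. *Slc39a8* made up 0.492 ± 0.0321% and 2.24 ± 0.135%. *Slc39a1*, which encodes the broadly expressed plasma membrane importer ZIP1, was highest in both groups, with 36.9% of the sum with vehicle and 32.2% with IL-1β. The summed level of the 14 genes was 169 ± 3.15 RPKM with vehicle and 229 ± 2.77 RPKM with IL-1β. Without *Slc39a8* and *Slc39a14* the other 12 summed to 152 ± 2.74 and 168 ± 3.19 RPKM, a smaller gap than with them. The shares depend on dividing by length, since the exons of the annotated *Slc39a14* transcripts together cover 10550 bases. A single transcript can be shorter than this, so the RPKM and the order by RPKM hold for these lengths only. Taken from CPM, it held 23.5% of the ZIP sum with vehicle and 47.7% with IL-1β, ahead of every other ZIP gene in both groups.

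The exporter and the sensor moved by much less. *Slc30a1* (ENSMUSG00000037434.7, chr1:191906767-191913247, plus strand) encodes ZnT1, which carries zinc out of the cell across the plasma membrane. It was at 37.4, 34.7, 35.9 and 36.4 CPM with IL-1β and at 28.7, 31.1, 28.9 and 29.7 CPM with vehicle. The groups did not overlap, but the highest vehicle and the lowest IL-1β sample were less than 4 CPM apart. The change was 1.22-fold (95% interval 1.13 to 1.31), a log2 fold change of 0.28 with an SE of 0.0499 and an adjusted p of 3.02e-05 in edgeR's test. Of the exon bases of *Slc30a1*, 8.9% are also exon of the antisense gene *1700034H15Rik*, which had between 10 and 25 counts per sample.

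*Mtf1* (ENSMUSG00000028890.13, chr4:124802104-124849800, plus strand) was at 37.6, 42.1, 43.6 and 39.9 CPM with IL-1β and at 34.7, 36.6, 34.8 and 35.6 CPM with vehicle. The nearest samples of the groups were about 1 CPM apart. The change was 1.16-fold (95% interval 1.08 to 1.24), a log2 fold change of 0.21 with an SE of 0.0498 and an adjusted p of 0.00103. This was the smallest change of the 6 genes, with the 2963rd largest log2 fold change among tested genes. The coefficient of variation of *Mtf1* was 6.43% over the IL-1β samples, where counting error alone would give 4.18%. Exons of the opposite-strand gene *1110065P20Rik* cover 8.1% of the *Mtf1* exon bases. That gene had between 99 and 169 counts per sample, where *Mtf1* had 416 to 732 with IL-1β and 486 to 631 with vehicle. The transcript level of *Mtf1* does not report the activity of the protein, which depends on bound zinc.

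Tested against a log2 fold change of 1 rather than 0 (glmTreat), *Slc30a1* and *Mtf1* were not called, each with an adjusted p of 1, while the other 4 members were. Between 1 importer and 1 exporter, *Slc39a14* and *Slc30a1*, the ratio of transcripts was higher with IL-1β. The log2 ratio of *Slc39a14* to *Slc30a1* counts was 2.54 ± 0.0647 with vehicle and 4.03 ± 0.0335 with IL-1β. The difference of 1.49 (SE 0.0364) is a 2.81-fold change of the ratio (exact permutation p = 0.0286, n = 4 in each group).

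The metallothioneins held the highest level of the 6 genes (*Mt1*) and the largest fold change (*Mt2*). *Mt1* (ENSMUSG00000031765.8, chr8:94179082-94180327, plus strand) was at 328, 355, 339 and 341 CPM in the vehicle samples and at 2071, 2007, 2081 and 2081 CPM in the IL-1β samples. Counts ran from 4740 to 6129 with vehicle and from 22912 to 34931 with IL-1β, so counting error was below 2% of the mean in both groups. The increase was 6.04-fold (95% interval 5.78 to 6.31), a log2 fold change of 2.59 with an SE of 0.0307 and an adjusted p of 4.62e-31 in edgeR's test. *Mt1* rose from the 357th to the 27th place among tested genes by CPM. The exons of its annotated transcripts together cover its whole span of 1246 bases, introns included, and share no base with an exon of another gene.

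*Mt2* (ENSMUSG00000031762.7, chr8:94172664-94173568, plus strand) lies upstream of *Mt1* on the same chromosome and strand. It had 24, 17, 18 and 18 counts in the vehicle samples and 140, 172, 165 and 236 in the IL-1β samples. These are 1.39, 0.985, 1.29 and 1.19 CPM against 12.7, 12.4, 9.83 and 16.8 CPM. With 0.985 CPM in 1 vehicle sample, the vehicle samples alone would not have met the filter on low counts. All IL-1β samples were far above all vehicle samples, and the fourth IL-1β sample was the highest. The increase was 10.6-fold (95% interval 8.22 to 13.6), a log2 fold change of 3.40 with an SE of 0.177 and an adjusted p of 1.26e-15 in edgeR's test, the 43rd largest among tested genes. The interval is wide beside those of the other members. The coefficient of variation over the IL-1β samples was 22.2%, where counting error alone would give 7.49%, while with vehicle it was 14.2%, below the 22.8% that counting error would give.

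The level of *Mt2* is uncertain in this table. Of its 588 exon bases, 432 (73.5%) are also exon of *Gm45774*, an antisense gene that runs across the start of *Mt2*, and 156 belong to *Mt2* alone. How reads from the shared bases were assigned is not given in the sources used here. *Gm45774* itself had 26, 28, 33 and 34 counts with IL-1β and 2, 9, 9 and 6 with vehicle, with a log2 fold change of 2.39 and an adjusted p of 1.57e-07 in edgeR's test. It passed the filter on low counts only through the IL-1β samples. Without strand in the counting, reads of *Mt2* and of *Gm45774* could not be told apart, which bears on the fold change of *Mt2* as well as on its level. *Mt1* and *Mt2* had no stretch of 50 bases in common with each other or, on the same strand, with any other annotated transcript.

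**Figure D2:**
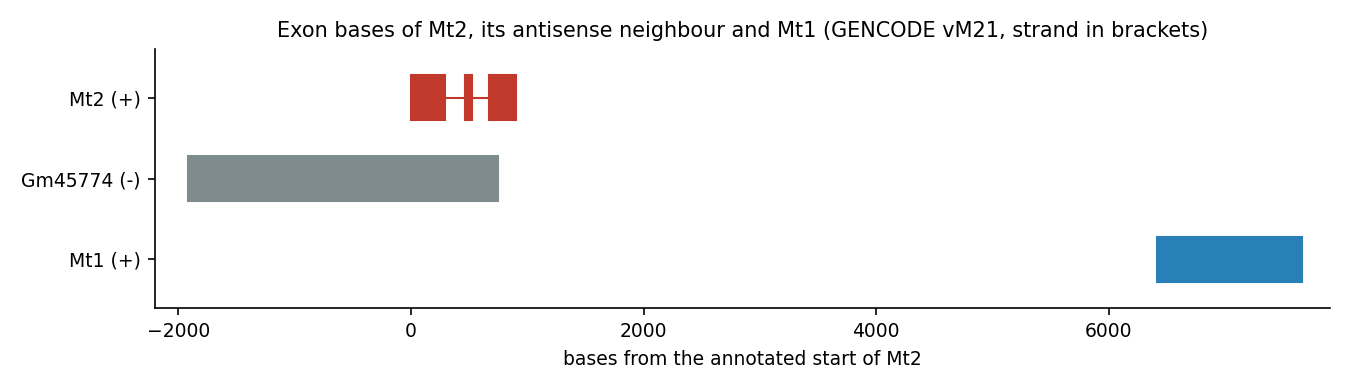
Exon bases of *Mt2*, *Gm45774* and *Mt1* (GENCODE vM21), drawn to scale along the chromosome in bases from the annotated start of *Mt2*, with each gene's strand in brackets. *Gm45774* covers 432 of the 588 *Mt2* exon bases and none of *Mt1*.

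On the RPKM scale, *Mt1* was at 274 ± 8.89 with vehicle and 1653 ± 28.8 with IL-1β, and *Mt2* at 2.06 ± 0.293 and 22.0 ± 4.89. *Mt1* was thus 133 times *Mt2* with vehicle and 75.2 times with IL-1β. If all *Mt2* reads came from its 156 unshared bases, the *Mt2* level would be 7.77 ± 1.10 and 82.9 ± 18.4 RPKM, and the ratios 35.2 and 19.9. *Mt1* remained above *Mt2* under either length.

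The within-sample log2 ratio of *Mt2* to *Mt1* counts was -8.11 ± 0.254 with vehicle and -7.34 ± 0.315 with IL-1β. The difference of 0.77 (SE 0.202, exact permutation p = 0.0286, n = 4 in each group) includes the low vehicle counts of *Mt2*. Adding 1 CPM to each gene in place of 0.5 counts brought it to 0.04 (p = 0.886, exact permutation test), an addition about as large as the vehicle level of *Mt2* itself, which lowers the fold change of *Mt2* by construction. With 1 sample left out at a time the difference was 0.64 to 0.90. The log2 ratio of *Mt1* to *Mtf1* counts went from 3.27 ± 0.0192 to 5.66 ± 0.102, a difference of 2.39 (SE 0.0519, exact permutation p = 0.0286), or 5.25-fold.

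**Figure D3:**
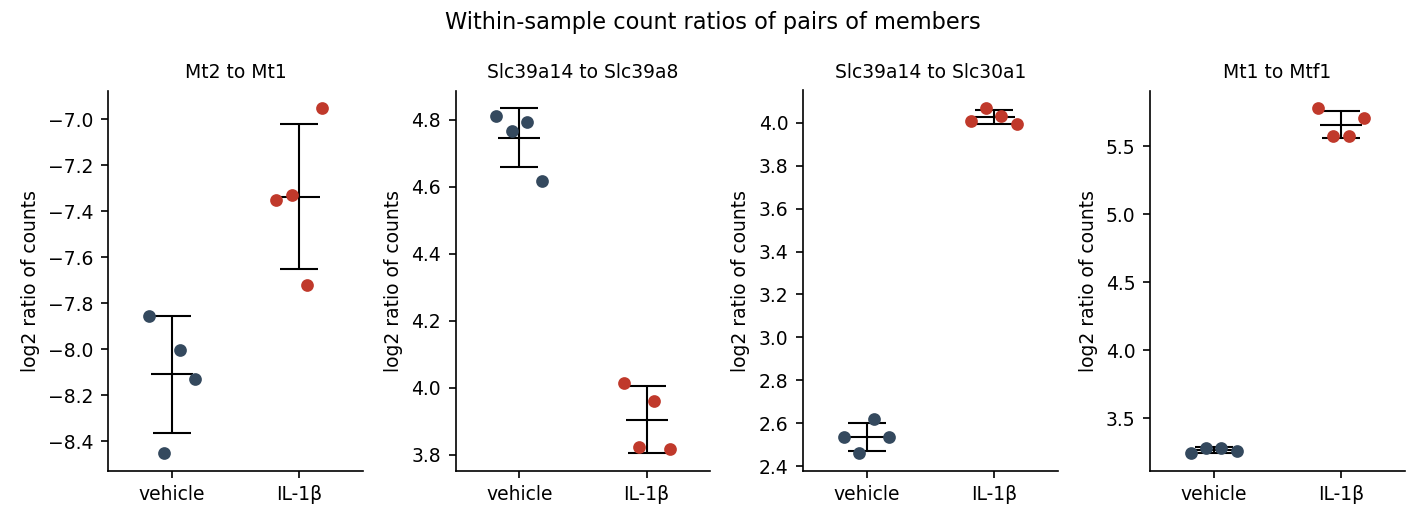
Log2 ratio of the counts of 2 members within each sample, with points for samples, the long bar for the mean and the short bars for 1 SD (n = 4). Each panel has its own axis, which does not start at 0. The groups do not overlap in any of the 4 panels, and the points scatter most for *Mt2* to *Mt1*.

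Ordered by RPKM, the vehicle samples had *Mt1* (274), *Slc39a14* (16.3), *Slc30a1* (5.64), *Mtf1* (3.97), *Mt2* (2.06) and *Slc39a8* (0.832), and no neighbours in this order overlapped. With IL-1β the order was *Mt1* (1653), *Slc39a14* (55.8), *Mt2* (22.0), *Slc30a1* (6.89), *Slc39a8* (5.13) and *Mtf1* (4.58). *Slc39a8* (4.86 to 5.38) and *Mtf1* (4.22 to 4.90) overlapped in range, though *Slc39a8* was the higher of the pair within each of the 4 IL-1β samples. On its unshared bases alone *Mt2* would stand above *Slc39a14* with IL-1β and above *Slc30a1* with vehicle, so that its place is the uncertain part of this order.

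The remaining transporters showed mostly small shifts. Of the 12 other ZIP genes 10 could be tested, of which 4 were higher and 1 was lower with IL-1β, and their median log2 fold change was 0.08. *Slc39a4*, the intestinal zinc importer ZIP4, was the DEG of the list, with 19, 26, 31 and 31 counts with IL-1β against 3, 0, 4 and 6 with vehicle (log2 fold change 3.18, SE 0.375, adjusted p 4.89e-08). Its level with IL-1β was only 0.616 RPKM, and it passed the filter on low counts only through the IL-1β samples. *Slc39a1* had a level of 148 ± 5.03 CPM in vehicle samples and of 175 ± 3.05 CPM in IL-1β samples (log2 fold change 0.24, adjusted p 2.23e-07). *Slc39a6*, which encodes ZIP6 and had the next highest level per length of this list, was at 86.1 and 75.7 CPM (0.19, adjusted p 0.000208). *Slc39a7*, the endoplasmic reticulum zinc channel ZIP7, was the gene that was lower, at 28.7 and 32.3 CPM (-0.17, adjusted p 0.0115), and shares 80.7% of its exon bases with other genes.

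Of the 9 other ZnT genes 6 could be tested. *Slc30a4* and *Slc30a7* were higher, *Slc30a2* and *Slc30a5* were lower, and 0 were DEGs (edgeR, as above, with a median log2 fold change of -0.03). *Slc30a4*, a vesicular zinc transporter, had the highest level of the family, at 21.8 RPKM in IL-1β samples and 19.1 RPKM in vehicle samples (log2 fold change 0.19, adjusted p 5.81e-05). *Slc30a6*, next by mean level per length among these 9 genes, was at 6.84 and 7.36 RPKM and did not pass the test (-0.10, adjusted p 0.219). *Slc30a2* had the largest shift of the list, at 1.63 and 2.34 CPM (-0.55, adjusted p 0.0434), with overlapping groups. The 10 ZnT genes together summed to 48.9 ± 1.06 RPKM with vehicle and 52.1 ± 0.981 RPKM with IL-1β. *Slc39a12*, *Slc30a8* and *Slc30a10* were at 0 in all samples, and each of the remaining metallothionein genes, *Mt3* and *Mt4*, had 1 count in 1 vehicle sample and 0 with IL-1β.

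Further genes known as MTF1 targets were mostly higher. Of 8 listed 7 could be tested, 5 were higher, 1 was lower and 1 was a DEG, with a median log2 fold change of 0.33. The DEG was *Hamp*, the iron hormone hepcidin, with 42, 60, 79 and 67 counts with IL-1β and 0, 2, 1 and 1 with vehicle. It passed the filter on low counts only through the IL-1β samples. Scaled to library size, its summed counts with IL-1β were 70.9 times those with vehicle, with a counting interval of 27.3 to 262 (adjusted p 1.16e-14 in edgeR's test). Hepcidin is also known as a target of IL-6 and STAT3 signalling. *Ndrg1*, a stress-response gene, was at 351 ± 5.66 and 281 ± 8.88 CPM with IL-1β and vehicle (log2 fold change 0.32, adjusted p 1.80e-09), and *Selenow*, which encodes a small selenoprotein, at 90.6 ± 10.6 and 81.0 ± 2.99 CPM (0.17, adjusted p 0.0114), with overlapping groups. *Gclc*, the catalytic subunit of the first enzyme of glutathione synthesis, had a log2 fold change of 0.42, and *Slc39a10*, which encodes the importer ZIP10 and is counted among the ZIP genes too, 0.33. *Csrp1* was the gene that was lower, by -0.16 (adjusted p 0.0249). Outside *Hamp*, these changes were nearer in size to those of *Slc30a1* and *Mtf1* than to that of *Mt1*.

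The matrix proteases placed downstream of ZIP8 and MTF1 in cartilage were higher, 4 of the 4 that could be tested, with 3 DEGs and a median log2 fold change of 3.13. *Mmp3* (stromelysin-1) had a level of 23.6 ± 1.48 CPM in vehicle samples and of 1058 ± 69.3 CPM in IL-1β samples, and its log2 fold change was 5.48. *Mmp13*, the main collagenase of cartilage, was at 212 ± 4.96 and 32.2 ± 2.11 CPM, a log2 fold change of 2.71. *Mmp12* had 36, 37, 61 and 45 counts against 4, 5, 2 and 6 (log2 fold change 3.55, adjusted p 1.31e-11 in edgeR's test), and *Adamts5*, an aggrecanase, had a log2 fold change of 0.89. *Mmp12* passed the filter on low counts only through the IL-1β samples, and *Mmp9* was below the filter.

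Copper handling genes were included because metallothioneins bind copper too. Of 8, all tested, 4 were higher, 0 lower and 1 a DEG, with a median log2 fold change of 0.13. *Atp7b*, a copper-exporting ATPase, was the DEG, at 2.72 ± 0.329 and 1.10 ± 0.294 CPM (log2 fold change 1.33, adjusted p 1.17e-05), a call that glmTreat with a bound of 1 on the log2 scale did not make. The genes with the highest levels per length were the copper chaperones *Atox1* (35.3 and 31.1 CPM, log2 fold change 0.19, adjusted p 0.00586, groups overlapping) and *Ccs* (17.4 to 23.3 CPM over all samples, -0.17, adjusted p 0.0845). Over all tested genes, 20.4% were called higher, 19.8% were called lower and 2.86% were DEGs upward. The shares of genes called in these lists are counts over few genes, and nothing particular to a list is drawn from them.

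**Figure D4:**
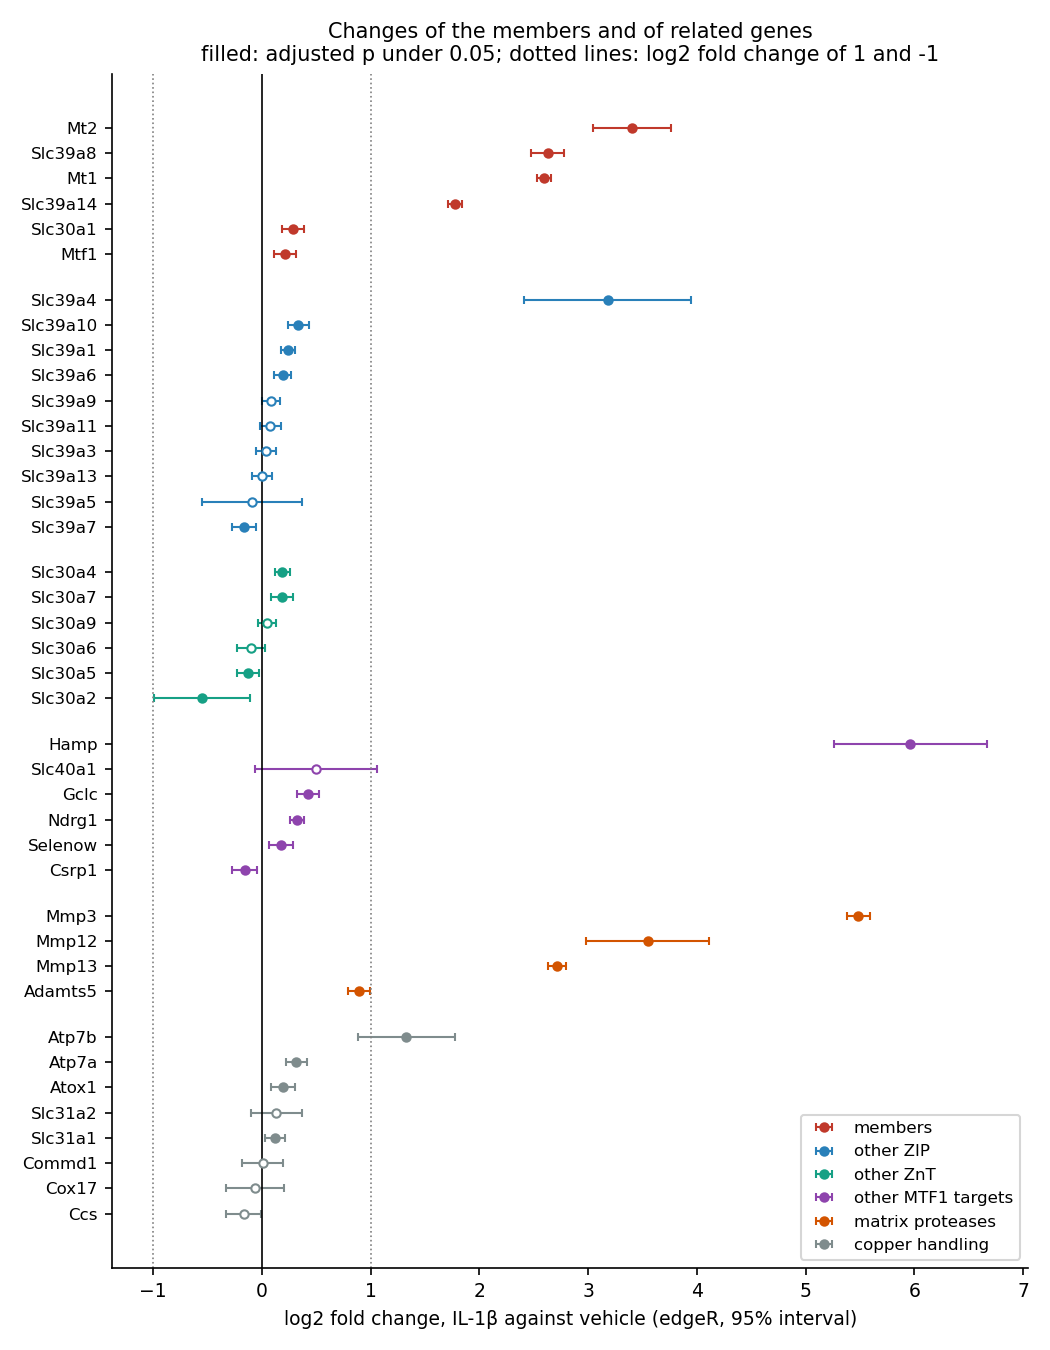
Log2 fold change, IL-1β against vehicle, of the 6 members and of the tested genes of 5 related lists, with the 95% interval (edgeR). Filled points have an adjusted p under 0.05 and dotted lines mark -1 and 1. *Mt2*, *Slc39a8*, *Mt1* and *Slc39a14* lie beyond 1, with *Slc39a4*, *Hamp*, *Mmp3*, *Mmp12*, *Mmp13* and *Atp7b* as the further genes beyond it.

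The genes whose profiles over the 8 samples lay nearest to each member were listed by the root mean square difference of centred log2 CPM, among genes with a mean of at least 10 CPM. This is a description in which the step between the groups dominates. Nearest to *Mt1* were *Nfkbiz* (0.0372), a nuclear IκB protein, *Sod2* (0.0420), the mitochondrial superoxide dismutase, and *Mmp13* (0.0759). Nearest to *Slc39a8* were *Nfkbiz* (0.0761), *Mt1* (0.0835) and *Sod2* (0.0893). The lists of *Slc39a8* and *Mt1* thus both held *Nfkbiz* and *Sod2*, with log2 fold changes of 2.63 for *Slc39a8* and 2.59 for *Mt1* beside 2.63 for *Nfkbiz* and 2.64 for *Sod2*.

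*Slc39a14* lay nearest to *Sod3* (0.0498), the extracellular superoxide dismutase, *Sema3c* (0.0506) and the spermine oxidase gene *Smox* (0.0579). *Mt2* had more distant neighbours, *Vnn1* (0.226), *Ptges* (0.294) and *Ereg* (0.312), and stood 0.459 from *Mt1*. *Slc30a1* lay nearest to *Dab2ip* (0.0259), *Dcaf12* (0.0260) and *Vit* (0.0288), and *Mtf1* to *Pip4k2b* (0.0194), *Myadm* (0.0232) and *Stx8* (0.0279). *Slc30a1* and *Mtf1* were 0.0916 apart, where each was more than 0.7 from the other 4 members.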

How the data were processed

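Total RNA of 8 chondrocyte samples was sequenced on a HiSeq4000. The authors trimmed reads with cutadapt, aligned them with STAR (2.4.2a in the submitters' processing notes) to mm10 with GENCODE annotation, and deposited raw counts per gene from featureCounts, with gene lengths in bases, in 1 table. Whether strand was used, and whether the batch correction by RUVseq that the methods name preceded these counts, is not given in the sources used here. Counts were whole numbers and were used as deposited. The genes and lists were chosen with earlier results of these data known.

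Samples were grouped by their labels, 4 with IL-1β and 4 with vehicle. Genes above 1 CPM in at least 4 samples were fitted with edgeR 4.0.16 (R 4.3.3, TMM, quasi-likelihood test, no covariates), after a test of the script on simulated data. SE was the absolute log2 fold change divided by the square root of F. CPM were TMM-scaled over the tested genes, and RPKM used the deposited lengths. Groups of fewer than 10 values were compared by two-sided exact permutation tests, with 0.5 counts added before ratios. Means are given ± SD. A count of 3 was taken as the detection floor, and counting intervals cover counting error only. Positions and exon overlaps are from GENCODE vM21 (GRCm38), 1 release after that of the authors, and promoter windows from RefSeq.

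The genes described are the 6 members and, from each list, its DEGs, the 2 genes with the highest level per length and the gene with the largest called change. For each member the 3 nearest profiles are given. *Slc39a7*, *Slc39a10*, *Slc30a5*, *Slc30a7*, *Gclc*, *Csrp1*, *Adamts5* and the genes at or near 0 were named after their values were seen. Alternatives were DESeq2 1.42.0, other size factors, other filters, a replicate block, 1 RUVs factor, stricter thresholds, a pseudocount of 1 CPM, shares without length and leaving out each sample. Replicates of a group differed by more than sampling noise, with a chi-square per gene of 1.58 to 3.84 within groups and 29.7 to 37.5 between them. This does not show whether they were separate cultures or technical repeats, and each was counted as a sample.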

Additional observations from a re-analysis of the deposited data

Results flagged for a closer look

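Among the groups of 4 samples checked for a value far from the others (Dixon's criterion at 95%), 2 of 56 stood out, where chance gives about 1 in 20, or 2.8. The level of *Mt1* in IL-1β replicate 2 was 2007 CPM, below the 2071 to 2081 CPM of the other IL-1β samples. This gap is small beside the difference from vehicle (328 to 355 CPM). The level of *Slc30a6* in IL-1β replicate 1 was 19.8 CPM, below the 21.3 to 21.6 CPM of the other IL-1β samples.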

How the results depend on the processing

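The 6 members kept their direction in all 95 values computed under alternatives, and 93 of the 95 kept their side of the threshold. The exceptions were *Slc30a1* and *Mtf1* under glmTreat, which asks for a change beyond 1 on the log2 scale (adjusted p of 1 for both). At a log2 fold change beyond 2, *Slc39a14* was no longer a DEG, which left 3 members. Leaving out 1 sample at a time gave log2 fold changes of 2.59 to 2.67 for *Slc39a8*, 1.76 to 1.79 for *Slc39a14*, 0.27 to 0.31 for *Slc30a1*, 0.18 to 0.24 for *Mtf1*, 2.57 to 2.62 for *Mt1* and 3.25 to 3.53 for *Mt2*, with 6 members passing and 4 DEGs each time. Apart from the stricter test, adjusted p did not exceed 0.00861 for *Mtf1* or 0.000271 for *Slc30a1*. A filter of more than 1 CPM in all 8 samples removed *Mt2* and left 3 members and 2 of the 6 genes of the related lists as DEGs. *Atp7b* was no longer a DEG under that filter, beyond 2 or with glmTreat, which left 0 in the copper list. Among all genes, the 751 DEGs became 1206 with no filter, 511 with that stricter filter, 183 at a log2 fold change beyond 2, 437 with glmTreat and 788 to 815 with 1 sample left out. DESeq2 gave 757, of which 750 were shared.

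The difference between IL-1β and vehicle in the log2 ratio of *Mt2* to *Mt1* was 0.64 to 0.90 with 1 sample left out. It was 0.044 with 1 CPM added. The shares of *Slc39a14* in the ZIP sum without division by length were 47.7% and 23.5%, and those of *Slc39a8* 3.19% and 0.872%, for IL-1β and vehicle. The level of *Mt2* on its 156 unshared bases, an alternative chosen after seeing the data, was 82.9 and 7.77 RPKM. The labels do not say whether the replicate numbers pair the samples. Deviations of samples with the same number correlated by -0.0632 to 0.0322, and 0 of 8 samples was closest to its own number. A pairing with little shared variation would look the same, so this check cannot decide the question. With the number as a replicate block there were 751 DEGs, 745 of them shared, and all 6 members passed with 4 DEGs. Depth limits *Mt2*, *Gm45774*, *Slc39a4*, *Hamp*, *Mmp12* and *Atp7b* in the vehicle samples, which had at most 24 counts of each.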
